A study of Homo sapiens with 9 samples.

Results

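The PI3K-AKT-mTOR pathway carries signals from growth factor receptors such as EGFR to cell growth and survival. A class I PI3K, made of a catalytic p110 and a regulatory p85-type subunit, makes the membrane lipid PIP3, which brings the kinase AKT to the membrane for activation. AKT phosphorylates and thereby restrains the TSC1-TSC2 complex, a brake on the small GTPase RHEB, and RHEB activates the kinase mTOR within mTORC1. The messenger RNA of 9 core genes of this pathway was followed in the colorectal cancer cell line LIM1215 and its cetuximab-resistant derivatives: the catalytic subunits PIK3CA and PIK3CB, the regulatory subunits PIK3R1 and PIK3R3, the kinases AKT1, AKT2 and MTOR, and the TSC complex genes TSC1 and TSC2. They were taken by symbol out of 58920 genes listed in the count tables. All 9 passed the filter of at least 10 counts over the 9 libraries, which left 19102 genes for testing.

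LIM1215-parental cells were compared with LIM1215-R1 and LIM1215-R2, labelled Resistant_1 and Resistant_2. R1 and R2 are resistant populations, not single-cell clones, which were derived side by side by keeping LIM1215 cells in rising amounts of cetuximab, an antibody against EGFR, for months. The study describes the cells used for RNA as untreated and in basal culture, in serum-containing medium shared by all 3 lines. After their derivation R1 and R2, unlike parental cells, were maintained with cetuximab unless described otherwise. How long before RNA isolation it was withdrawn is not given in the sources used here, so the recent drug history of the lines may differ. Each line has 3 libraries that the study calls technical replicates, so p-values describe only the spread between these libraries, and a difference between lines cannot be told apart from a difference between their cultures.

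Total counts lay between 13737416 and 18725014 per library, and 3 counts corresponded to 0.158 to 0.217 CPM, the read count scaled to library size. Log2 CPM of replicate libraries correlated across genes with r between 0.9895 and 0.9917. Of 9 markers of colorectal epithelium, 8 were at 1 CPM or more and KRT20 was at 0 in all libraries. The 9 markers summed to 12100 to 12500 CPM in parental, 15500 to 15800 in R1 and 14000 to 14400 in R2 libraries. In mean CPM, 5 of the 8 expressed markers were lower in both resistant lines, such as EPCAM (911 in parental, 758 in R1 and 729 in R2) and CDX2 (413, 305 and 283), and 3 were higher, KRT8 (5720, 7880 and 7170), KRT18 (4130, 5500 and 5010) and VIL1, and the 2 keratins make up most of the sum. Averaged over the 9 libraries, none of 7 fibroblast and none of 4 endothelial markers reached 1 CPM, with COL1A1 at 1.28 and PDGFRB at 1.21 in parental cells as the highest, and CD68 alone did among 5 leukocyte markers, while the defining leukocyte genes PTPRC and CD3E were at 0. Whether the epithelial marker levels bear on the results was not tested.

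PIK3R1 had the largest change among the 9 genes, and its RNA was about as low in R1 as in R2. PIK3R1 encodes p85α, the regulatory subunit that stabilises p110, holds it inactive at rest and recruits it to activated receptors. It lies at chr5:68215740-68301821 on the plus strand (hg38, GENCODE release 44). CPM was 103.6, 95.2 and 94.9 in the parental libraries, 50.6, 45.9 and 50.0 in R1 and 53.9, 51.8 and 48.3 in R2. Every resistant library was thus below every parental one, and the R1 and R2 libraries overlapped. In these bulk populations, fewer cells with the transcript and less transcript per cell cannot be told apart. In edgeR's quasi-likelihood test the log2 fold change was -1.0 in R1 (SE 0.0619, adjusted p = 2.95e-13) and -0.93 in R2 (SE 0.0616, adjusted p = 1.3e-12), which leaves 0.499 of the parental level in R1 (95% interval 0.457 to 0.545) and 0.525 in R2 (0.481 to 0.573). The difference between R2 and R1 was 0.07 on the log2 scale, with an interval from -0.06 to 0.21 and an adjusted p of 0.538. Both decreases held in all 18 alternative analyses, with log2 fold changes between -1.04 and -0.84 in R1 and between -0.97 and -0.85 in R2. A change at least as large as that of PIK3R1 was seen in 16.9% of all genes tested in R1 and 18.1% in R2, and it was below 1.5, the log2 threshold of the study for a differentially expressed gene.

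**Figure D1:**
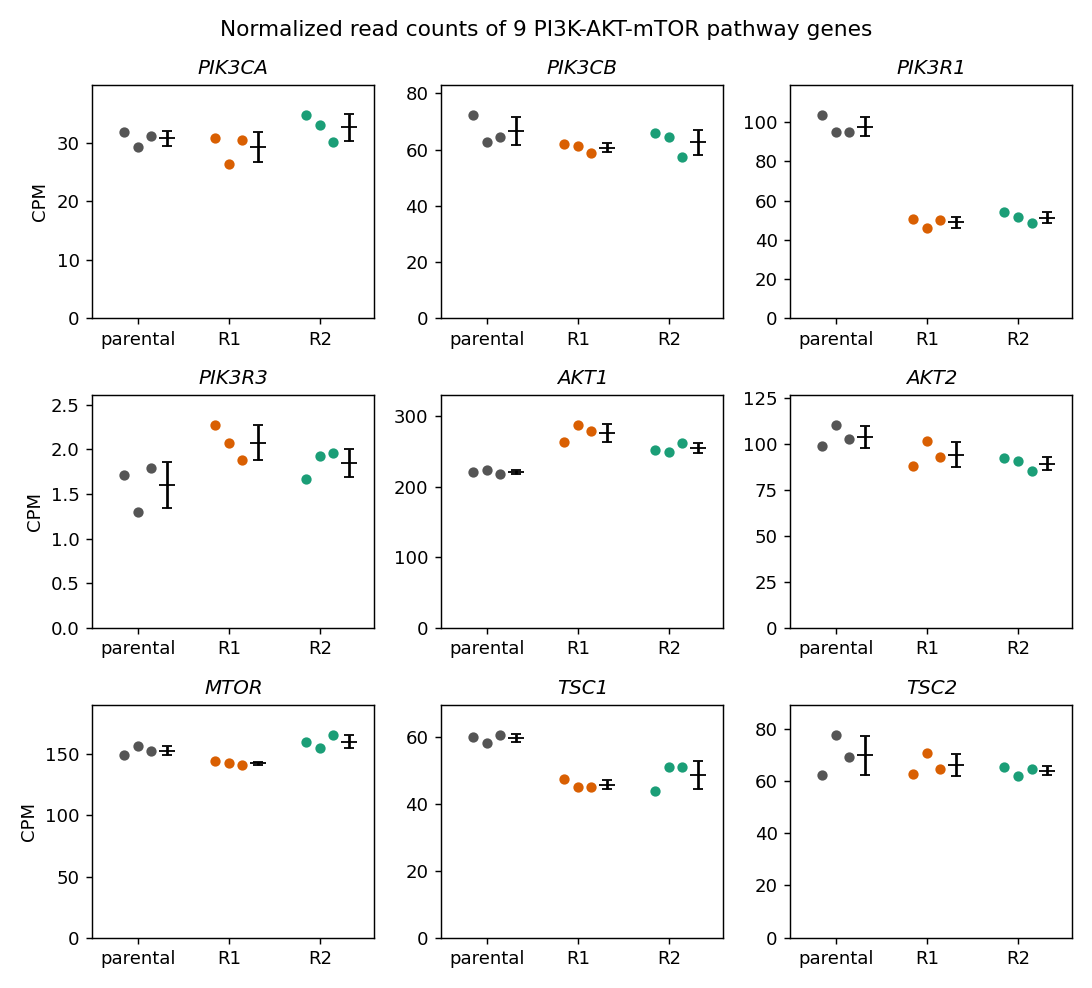
Normalized read counts (CPM, vertical axes from 0) of the 9 genes, with 1 point per library and the mean ± SD of the 3 libraries of each line beside the points. PIK3R1 and TSC1 lie lower and AKT1 higher in all 6 resistant libraries than in the 3 parental ones.

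The other regulatory subunit gene measured here, PIK3R3, which encodes p55γ, had the lowest counts of the 9 genes, 18 to 37 per library. Its CPM was 1.71, 1.30 and 1.79 in parental, 2.27, 2.07 and 1.88 in R1 and 1.67, 1.92 and 1.96 in R2 libraries. All R1 libraries lay above all parental ones, but the log2 fold change of 0.36 in R1 had an interval from -0.12 to 0.83 (adjusted p = 0.26) and that of 0.19 in R2 one from -0.30 to 0.68 (adjusted p = 0.612). A rise of the size by which PIK3R1 fell was therefore outside the interval, whereas smaller changes in either direction were not resolved at this depth. PIK3R3 (chr1:46040140-46133036, minus strand) shares 17.5% of its exon bases with the readthrough gene P3R3URF-PIK3R3 on the same strand, and how reads in shared exons were counted is not given in the sources used here, so its level is uncertain. PIK3R1 counts exceeded PIK3R3 counts 61.7-fold in parental cells, 23.6-fold in R1 and 27.8-fold in R2, without correction for length. The log2 ratio was 5.95 ± 0.23 in parental, 4.56 ± 0.15 in R1 and 4.80 ± 0.20 in R2 cells (SD, n = 3 each). The resistant libraries did not overlap the parental ones in this ratio, and the exact two-sided permutation test gave p = 0.1 for each line, the smallest value that 3 against 3 libraries allow.

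The catalytic subunit genes showed no called change. PIK3CA encodes p110α, the isoform most often mutated in colorectal cancer, and PIK3CB encodes p110β. PIK3CA (chr3:179148114-179240093, plus strand) was at 31.8, 29.3 and 31.1 CPM in parental, 30.9, 26.3 and 30.5 in R1 and 34.7, 33.1 and 30.2 in R2 libraries. PIK3CB (chr3:138652698-138834928, minus strand) was at 72.2, 62.9 and 64.4 CPM in parental, 62.0, 61.1 and 58.8 in R1 and 65.8, 64.4 and 57.4 in R2 libraries. The lines overlapped for PIK3CA, while the PIK3CB values of R1 lay just below all parental values. The log2 fold changes of PIK3CA were -0.07 in R1 (interval -0.24 to 0.09, adjusted p = 0.52) and 0.09 in R2 (interval -0.07 to 0.25, adjusted p = 0.456). Those of PIK3CB were -0.13 in R1 (interval -0.27 to 0.0007, adjusted p = 0.118) and -0.09 in R2 (interval -0.22 to 0.05, adjusted p = 0.346). Against the lower bound of each interval, PIK3CA kept at least 0.848 and PIK3CB at least 0.831 of the parental level in R1, so the decrease by which PIK3R1 stood out lay outside the intervals of both catalytic genes. Per kilobase of transcript, PIK3CA made up 23.8% ± 0.86 of the sum of both in parental, 24.6% ± 1.8 in R1 and 26.1% ± 0.26 in R2 cells (SD, n = 3 each). The exact permutation test of the log2 ratio gave p = 0.6 for R1 and p = 0.1 for R2 against parental.

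AKT1 was higher in both resistant lines. It encodes the most broadly expressed of the AKT kinases and lies at chr14:104769349-104795751 on the minus strand. CPM was 221.6, 223.8 and 218.6 in parental, 262.9, 287.4 and 278.8 in R1 and 252.0, 249.9 and 262.4 in R2 libraries. All 6 resistant libraries were above the highest parental one, and the lowest R1 library was above the highest R2 library. The log2 fold change was 0.32 in R1 (SE 0.0447, adjusted p = 1.62e-06), a rise of 24.9%, and 0.20 in R2 (SE 0.0448, adjusted p = 0.000723), a rise of 15.1%. The R1 call held in all 18 alternatives. When the dependence on GC content and length was taken out of each library, the R2 value was 0.10 and no longer called (adjusted p = 0.0234), and the R1 value was 0.22.

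AKT2 moved the other way. Its product is the AKT kinase best known for its part in insulin-stimulated glucose uptake, and it lies at chr19:40230317-40285536 on the minus strand. CPM was 99.0, 110.4 and 102.7 in parental, 88.3, 101.7 and 93.2 in R1 and 92.4, 90.7 and 85.3 in R2 libraries. The R2 values lay below all parental ones, whereas R1 and parental overlapped through the R1 replicate 2. AKT2 fell by 0.22 on the log2 scale in R2 (adjusted p = 0.00575), and its value in R1 was -0.14 (interval -0.26 to -0.02, adjusted p = 0.0699). The R2 call was lost without parental replicate 2 (adjusted p = 0.0301) or 3 (0.0152), without R1 replicate 3 (0.0105) and without R2 replicate 1 (0.0112), 2 (0.0195) or 3 (0.0364), always with a negative value. With the GC and length trends removed, AKT2 was called lower in R1 too, at -0.22 (adjusted p = 0.000104).

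AKT1 and AKT2 were also compared as a ratio. The log2 ratio of AKT1 to AKT2 counts was 1.09 ± 0.07 in parental, 1.55 ± 0.05 in R1 and 1.51 ± 0.10 in R2 cells (SD, n = 3 each). Per kilobase, AKT1 made up 79.1% ± 0.82 of the sum of AKT1 and AKT2 in parental, 83.9% ± 0.43 in R1 and 83.5% ± 0.91 in R2 libraries. The highest parental share, 79.9%, was below the lowest resistant one, 82.9%. Exact permutation tests gave p = 0.1 for each resistant line against parental, the smallest possible, and p = 0.6 between R2 and R1. After Benjamini-Hochberg adjustment over the 12 ratio comparisons, the smallest adjusted value was 0.24.

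Sequence upstream of PIK3R1 and AKT1 is shown because these genes had the largest called changes in opposite directions in R1. RefSeq promoters of GRCh38.p14 were matched by symbol for all 9 genes. Each line below runs 5′ to 3′ on the gene's strand over the 250 bases before the RefSeq start, chr5:68215506-68215755 on the plus strand for PIK3R1 and chr14:104795749-104795998 on the minus strand for AKT1. Capitals mark GC boxes, GGGCGG on either strand, the element bound by SP1-type factors.
PIK3R1: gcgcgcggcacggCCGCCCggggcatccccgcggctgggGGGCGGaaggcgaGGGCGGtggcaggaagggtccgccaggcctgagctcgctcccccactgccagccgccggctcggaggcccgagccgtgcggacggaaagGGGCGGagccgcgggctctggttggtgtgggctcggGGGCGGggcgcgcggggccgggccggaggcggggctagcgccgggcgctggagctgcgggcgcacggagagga
AKT1: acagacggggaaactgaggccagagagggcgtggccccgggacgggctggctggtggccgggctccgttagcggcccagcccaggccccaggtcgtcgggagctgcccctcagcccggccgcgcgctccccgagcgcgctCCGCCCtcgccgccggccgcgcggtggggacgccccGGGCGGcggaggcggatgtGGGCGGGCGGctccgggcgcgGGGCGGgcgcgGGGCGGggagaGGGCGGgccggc
Both promoters are rich in G and C, 81.6% for PIK3R1 and 83.2% for AKT1, against a median of 58.0% over 27305 promoters of the same length. PIK3R1 holds 5 GC boxes and AKT1 holds 7, some of which overlap, and 4.20% and 1.18% of all promoters hold at least as many. A GC box occurred at least once before each of the 9 genes and in 42.3% of all promoters. The FOXO element GTAAACA (2.98% of all promoters), searched on both strands because FOXO factors are AKT substrates, matched before PIK3CA only among the 9 genes. The E-box CACGTG, which reads the same on both strands (6.49%), matched before TSC2 only, the AP-1 site TGANTCA (6.60%) before none, and CCAAT (33.0%) before PIK3CA, PIK3CB and MTOR. These matches describe the windows and are not evidence of binding.

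MTOR, the kinase shared by mTORC1 and mTORC2, was near its parental level in both lines. It lies at chr1:11106535-11262556 on the minus strand. CPM was 149.2, 157.1 and 153.1 in parental, 144.2, 142.5 and 141.4 in R1 and 160.0, 155.0 and 165.8 in R2 libraries. The R1 libraries were below and the R2 libraries around and above the parental ones, and all R2 libraries were above all R1 libraries. The log2 fold change was -0.10 in R1 (interval -0.20 to -0.004, adjusted p = 0.101) and 0.07 in R2 (interval -0.03 to 0.16, adjusted p = 0.328). Between R2 and R1 it was 0.17 (SE 0.0473, adjusted p = 0.0178), the smallest adjusted p of the 9 genes in that comparison but above 0.01. It was called in that comparison with library totals in place of TMM scaling (0.19, adjusted p = 0.00814), with GC and length trends removed (0.15, adjusted p = 0.0046) and with the replicate number in the model.

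TSC1 was lower in both resistant lines. It encodes hamartin, which stabilises its partner tuberin, and lies at chr9:132891348-132946874 on the minus strand. CPM was 60.1, 58.4 and 60.7 in parental, 47.4, 45.1 and 45.1 in R1 and 43.9, 51.1 and 51.2 in R2 libraries. No resistant library reached the lowest parental value, and R2 replicate 1 was the lowest of all 9. TSC1 fell by 0.38 on the log2 scale in R1 (SE 0.0654, adjusted p = 3.2e-05) and by 0.30 in R2 (SE 0.0651, adjusted p = 0.000715), which left 0.767 and 0.815 of the parental level. The R1 call held in all 18 alternatives, and the R2 call was lost without R2 replicate 1 (-0.22, adjusted p = 0.0142).

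TSC2 encodes tuberin, the subunit that turns off RHEB through its GTPase-activating domain, and lies at chr16:2047967-2089491 on the plus strand. CPM was 62.4, 77.6 and 69.3 in parental, 62.6, 70.7 and 64.7 in R1 and 65.5, 62.0 and 64.5 in R2 libraries. All 3 lines overlapped, and the parental libraries had the widest spread. The log2 fold change was -0.08 in R1 (interval -0.22 to 0.06, adjusted p = 0.428) and -0.12 in R2 (interval -0.26 to 0.02, adjusted p = 0.197). With GC and length trends removed, TSC2 was called lower in R1 (-0.17, adjusted p = 0.00386) and in R2 (-0.22, adjusted p = 0.000274), while without parental replicate 2 its R1 value was 0.002. The log2 ratio of TSC1 to TSC2 counts was -0.22 ± 0.18 in parental, -0.52 ± 0.12 in R1 and -0.40 ± 0.16 in R2 cells (SD, n = 3 each), with overlapping libraries and exact permutation p = 0.2 and p = 0.3.

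**Figure D2:**
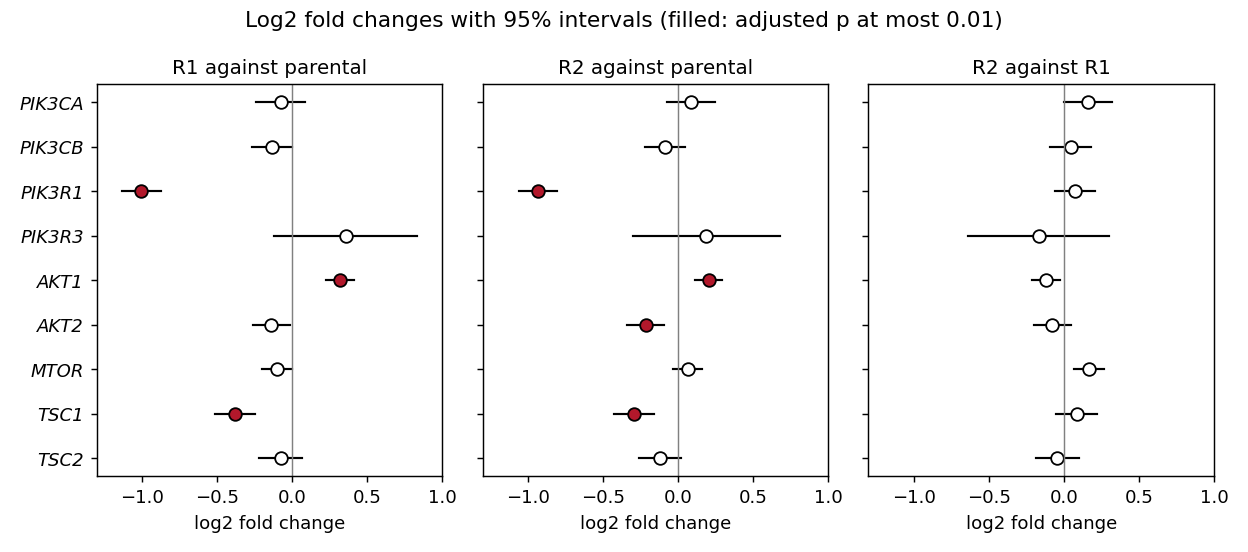
Log2 fold changes of the 9 genes (horizontal axis) with 95% intervals in R1 against parental, R2 against parental and R2 against R1, filled where the adjusted p was at most 0.01. PIK3R1 at -1.0 and -0.93 stands apart from the other 8 genes in both comparisons with parental cells, and no symbol is filled in R2 against R1.

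Counted together, 3 of the 9 genes were called at an adjusted p of at most 0.01 in R1, AKT1 higher and PIK3R1 and TSC1 lower, against 27.3% of all genes tested (14.0% higher and 13.4% lower). In R2, 4 of 9 were called, AKT1 higher and PIK3R1, AKT2 and TSC1 lower, against 23.8% of all genes tested (12.3% higher and 11.6% lower). None had an adjusted p of at most 0.01 together with a log2 fold change of 1.5 or more in size, the thresholds of the study, which 5.14% of genes passed in R1 and 4.82% in R2 with edgeR's unshrunken values. The study shrinks fold changes with DESeq2's lfcShrink before it applies them. With lfcShrink of type normal, again none of the 9 genes passed, beside 2.06% and 2.14% of all genes (394 in R1 and 408 in R2). The study reports more genes than that as shared by both lines, so these values do not reproduce its own. Groups did not overlap for 6 of 9 genes in R1 and 4 of 9 in R2, against 44.0% and 42.8% of all genes tested. With 9 genes, nothing beyond these counts is read from the shares. The median log2 fold change of the 9 genes was -0.10 in R1 and -0.09 in R2, beside -0.01 and -0.004 over all genes tested. The R1 and R2 comparisons share their parental libraries, so their likeness is not independent.

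Between R2 and R1, edgeR called 0 of the 9 genes, against 7.16% of all genes tested, and none passed the thresholds of the study on edgeR's values (0.764% of all genes tested). At an unadjusted p below 0.05 there were 2, MTOR and AKT1, which were also the 2 genes without overlap between the lines (28.0% of all genes tested), and DESeq2 called 0 as well. AKT1 was 0.12 lower in R2 than in R1 on the log2 scale (interval of the difference -0.21 to -0.03, adjusted p = 0.0871). Apart from PIK3R3, whose interval ran from -0.64 to 0.30, no interval of this comparison reached beyond -0.21 or 0.32.

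The order of the levels was read from CPM per kilobase of the canonical transcript, since longer transcripts collect more reads. In parental cells AKT1 was highest at 74.9 ± 0.88 CPM per kilobase, followed by AKT2 at 19.8 ± 1.1, MTOR at 17.6 ± 0.45 and PIK3R1 at 14.0 ± 0.71 (SD, n = 3 each). TSC2 at 10.9 ± 1.2 and PIK3CB at 10.6 ± 0.80 came next and overlapped, before TSC1 at 6.94 ± 0.14, PIK3CA at 3.32 ± 0.14 and PIK3R3 at 0.286 ± 0.047. AKT1 thus had the highest and PIK3R3 the lowest value of the 9 in every line. The place of PIK3R3 rests on its counts, which are uncertain because of the exons it shares with P3R3URF-PIK3R3. PIK3R1, at rank 4 in parental cells, was at rank 6 in both resistant lines, with 7.0 ± 0.37 in R1 and 7.37 ± 0.41 in R2, below PIK3CB and TSC2. AKT2 and MTOR exchanged ranks in R2, where MTOR was at 18.4 ± 0.62 and AKT2 at 17.1 ± 0.71. With the union of all exons as length, PIK3R1 was at rank 5 in parental cells, 6 in R1 and 5 in R2, and MTOR was at rank 2 throughout, so these middle ranks depend on which isoforms are counted.

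Trends of the counts on GC content and length were estimated within each library. The longest transcripts ranged from 35.7% GC in PIK3CA and 40.1% in PIK3R1 to 62.1% in AKT1. When both trends were removed, the R1 log2 fold change shifted by 0.23 for PIK3CA, 0.17 for PIK3R1 and 0.15 for PIK3CB, and by -0.10 for AKT1, -0.10 for TSC2 and -0.08 for AKT2. The shifts in R2 lay between -0.10 for AKT1 and 0.08 for PIK3CB. After this step PIK3R1 was at -0.84 in R1 and -0.85 in R2, 5 genes were called in R1 (AKT1 higher, and PIK3R1, AKT2, TSC1 and TSC2 lower), and 4 in R2 (all lower).

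**Figure D3:**
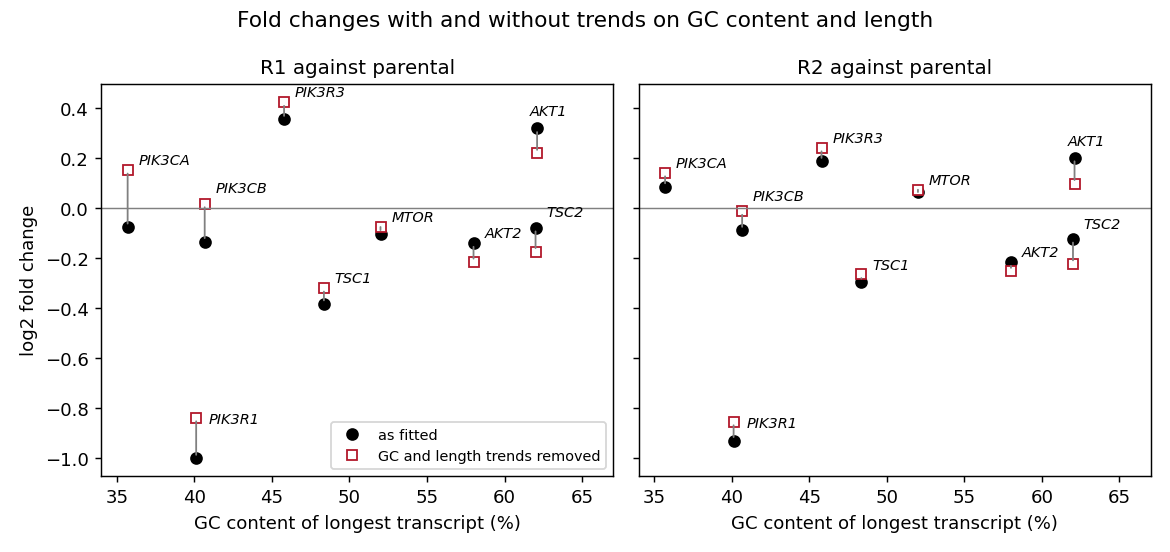
Log2 fold change against parental (vertical axes) by GC content of the longest transcript (horizontal axes, percent) for the 9 genes in R1 and R2, as fitted (filled circles) and with GC and length trends removed (open squares). PIK3R1 stays lowest in both lines, and the genes of lowest GC content move up while AKT1, AKT2 and TSC2 move down.

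The other genes of the pathway were taken from 8 lists with 81 genes, of which 76 were tested. In R1, 27 were called, 9 higher and 18 lower, which is 35.5% of those tested beside 27.3% of all genes. In R2, 26 were called, 7 higher and 19 lower, or 34.2% beside 23.8% of all genes. The list genes and all genes tested were not matched for expression level, on which the power to call a gene depends. The list shares are therefore not read as an excess over all genes. The median log2 fold change of the 76 genes was -0.08 in R1 and -0.04 in R2. The counts of single lists below stand beside the same shares of all genes, 27.3% in R1 and 23.8% in R2. With so few genes per list, nothing beyond those counts is read from them. Of the genes not tested, PIK3CG, PIK3R5 and PIK3C2G had 0 counts and PIK3R6 had 1 count in all 9 libraries together. PIK3CG, PIK3R5 and PIK3R6 encode the γ-type PI3K known from blood cells.

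**Figure D4:**
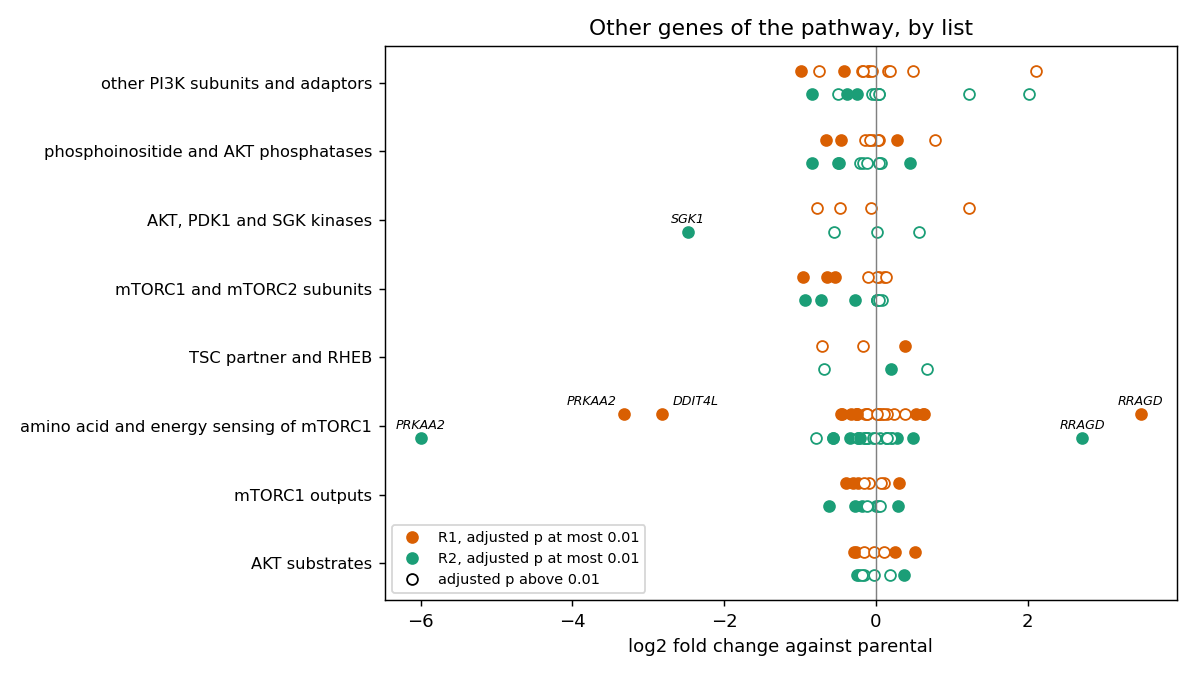
Log2 fold changes against parental cells (horizontal axis) of 76 further pathway genes in 8 lists, with R1 above R2 in each row and filled symbols where the adjusted p was at most 0.01. Most values lie near 0, PRKAA2 had 2 counts in R1 and 0 in R2, so that its position is no measure of size, and RRAGD lies highest in both lines.

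Among 12 tested PI3K subunits and adaptors, none was called higher in either line, 2 were lower in R1 and 3 in R2. GAB1, an adaptor that docks PI3K to receptors such as EGFR, was at 24.3, 23.9 and 25.2 CPM in parental, 13.3, 13.3 and 10.5 in R1 and 14.6, 12.6 and 13.7 in R2 libraries. It fell by 0.99 on the log2 scale in R1 (adjusted p = 3.46e-09) and by 0.84 in R2 (adjusted p = 4.63e-08), without overlap with the parental libraries. PIK3C2B, a class II PI3K, was also lower in both lines (-0.42 and -0.24). PIK3R2, which encodes p85β, was measured well at 102.4 ± 8.8 CPM in parental, 113.9 ± 12 in R1 and 102.0 ± 2.2 in R2 cells (SD, n = 3 each) and was not called. PIK3C2B and PIK3R2 were picked after their values had been seen.

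Of 10 phosphatases that act on phosphoinositides or AKT, 3 were called in R1 (1 higher, 2 lower) and 4 in R2 (1 higher, 3 lower). INPPL1, which encodes the PIP3 5-phosphatase SHIP2, was at 63.2, 69.1 and 72.6 CPM in parental, 42.7, 45.0 and 42.8 in R1 and 39.7, 35.0 and 39.9 in R2 libraries. All resistant libraries were below all parental ones, with log2 fold changes of -0.65 (adjusted p = 9.11e-09) and -0.84 (adjusted p = 8.53e-11). PHLPP2, an AKT phosphatase, was lower too (-0.45 and -0.50), and INPP4B, a 4-phosphatase, was the gene called higher (0.28 and 0.45). PHLPP2 and INPP4B were named after their values had been seen, and the R1 call of INPP4B was lost without parental replicate 3 (adjusted p = 0.0109) or R1 replicate 3 (adjusted p = 0.017).

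Among the kinases related to AKT, SGK1 was called in R2 against parental cells and no gene was called in R1. Its counts were low, with 54 over the parental, 30 over the R1 and 9 over the R2 libraries. The log2 fold change was -2.48 in R2 (adjusted p = 0.000266, and -0.91 with lfcShrink) and -0.78 in R1 (adjusted p = 0.135), and the difference between R2 and R1 was not called (-1.70, adjusted p = 0.0408). PDPK1, which encodes the AKT-activating kinase PDK1, was at 80.4 ± 0.49 CPM in parental, 76.9 ± 3.4 in R1 and 80.9 ± 0.83 in R2 cells (SD, n = 3 each) and was likewise named after its values had been seen.

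Of 8 subunits of the mTOR complexes, the same 3 genes were called in each resistant line, all lower. DEPTOR, a partner protein that inhibits mTOR, was at 13.3, 10.1 and 11.3 CPM in parental, 7.42, 5.40 and 5.13 in R1 and 7.26, 5.82 and 5.10 in R2 libraries. It fell by 0.96 on the log2 scale in R1 (adjusted p = 8.21e-06) and by 0.93 in R2 (adjusted p = 1.13e-05). The others were RICTOR (-0.53 and -0.27) and PRR5L (-0.64 and -0.72), both known from mTORC2. The R2 call of RICTOR was lost without parental replicate 1 (adjusted p = 0.0367) or 3 (0.0329) and without R2 replicate 1 (0.0139), 2 (0.0114) or 3 (0.0448). RPTOR, the defining subunit of mTORC1, was at 82.8 ± 6.8, 85.2 ± 6.9 and 87.1 ± 2.9 CPM in parental, R1 and R2 cells (SD, n = 3 each) and was not called. RICTOR, PRR5L and RPTOR were named after their values had been seen.

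RHEB, the GTPase that the TSC complex restrains, was at 50.7, 47.5 and 50.0 CPM in parental, 62.1, 64.7 and 67.2 in R1 and 57.1, 56.9 and 56.8 in R2 libraries. The lines did not overlap in any pair. RHEB rose by 0.39 on the log2 scale in R1 (adjusted p = 6.27e-06) and by 0.20 in R2 (adjusted p = 0.00939). The R2 value lay close to the threshold, and the call was lost in 11 of 18 alternatives, among them DESeq2 (adjusted p = 0.0108), library totals (0.0173) and every analysis without 1 parental or 1 R2 library (0.016 to 0.0355).

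The sensors that report amino acids and energy to mTORC1 held 3 of the 3 list genes with a called log2 fold change of 1.5 or more in size in R1 and 2 of the 3 in R2, on edgeR's unshrunken values. With lfcShrink no list gene passed 1.5, and RRAGD was at 1.2 in R1 and 0.78 in R2, DDIT4L at -1.26 in R1, and PRKAA2 at -0.58 and -0.65. Of 24 genes tested, 10 were called in R1 (4 higher, 6 lower) and 8 in R2 (3 higher, 5 lower). RRAGD, a Rag GTPase that brings mTORC1 to lysosomes, had 5 counts over the parental, 58 over the R1 and 34 over the R2 libraries, and every resistant library was above every parental one. Its ratio to parental was 12.0 in R1 (exact 95% counting interval 4.85 to 38.3) and 7.02 in R2 (2.73 to 23.0), with fitted log2 values of 3.49 (adjusted p = 3.74e-06) and 2.72 (adjusted p = 0.000371). PRKAA2, a catalytic subunit of the energy sensor AMPK, had 24 counts over the parental and 2 over the R1 libraries, which is an 11.6-fold lower level (exact 95% counting interval 2.88 to 101). In R2 it had 0 counts and was at least 7.75-fold lower against a floor of 3 counts over the group, while the exact 95% counting interval begins at 5.83-fold. The R1 call of PRKAA2 (adjusted p = 0.00674) was lost in DESeq2 (0.0304) and without parental replicate 1 (0.0543) or R1 replicate 1 (0.0279) or 2 (0.0282).

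DDIT4L, which encodes the mTORC1 inhibitor REDD2, was at 1.71, 1.95 and 1.37 CPM in parental, 0.307, 0.377 and 0 in R1 and 0.892, 0.991 and 0.980 in R2 libraries. The lines did not overlap in any pair. It fell by 2.82 on the log2 scale in R1 (adjusted p = 1.15e-05), and its value in R2 was -0.79 (adjusted p = 0.0775). LAMTOR4, part of the lysosomal Ragulator scaffold (-0.46 and -0.57), and CASTOR2, of the arginine sensor family (-0.45 and -0.56), were lower in both lines, and both were named after their values had been seen.

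Downstream of mTORC1, 4 of 8 genes were called in each line, 1 higher and 3 lower, beside 27.3% of all genes tested in R1 and 23.8% in R2. ULK1, the kinase that starts autophagy and is inhibited by mTORC1, was at 17.8, 21.2 and 22.2 CPM in parental, 14.8, 15.9 and 15.7 in R1 and 13.9, 13.1 and 12.9 in R2 libraries. It fell by 0.40 on the log2 scale in R1 (adjusted p = 0.00138) and by 0.62 in R2 (adjusted p = 9.53e-06), and the R1 call was lost without parental replicate 3 (adjusted p = 0.0198). Among 7 AKT substrates, 4 were called in R1 (2 higher, 2 lower) and 2 in R2 (1 higher, 1 lower). FOXO1, a transcription factor that AKT keeps out of the nucleus, was at 20.8, 24.2 and 23.8 CPM in parental, 33.7, 29.8 and 34.7 in R1 and 31.2, 27.9 and 29.9 in R2 libraries. It rose by 0.51 in R1 (adjusted p = 1.29e-05) and by 0.37 in R2 (adjusted p = 0.000845), without overlap with parental libraries, and the R2 call was lost without parental replicate 1 (adjusted p = 0.0114).

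The genes whose pattern was most like that of PIK3R1 were sought among 12562 genes with a mean of at least 1 CPM, by the root mean square difference of log2 CPM centred over the 9 libraries. The nearest were MBOAT2 (0.0597), SBF2 (0.0642) and ARID5B (0.0693). Centred log2 CPM of MBOAT2 was between 0.65 and 0.70 in the parental, between -0.45 and -0.35 in the R1 and between -0.31 and -0.25 in the R2 libraries. With 9 libraries in 3 lines, such a pattern mainly records a parental level above that of both resistant lines.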

How the data were processed

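Messenger RNA of parental LIM1215, R1 and R2 cells was sequenced in 3 stranded libraries per line. The authors used STAR and the hg38 build for alignment, obtained counts per gene from HTSeq 0.9.1 (per the labels) and deposited raw counts without normalization. The gene annotation used for counting is not given in the sources used here.

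A total of at least 10 counts was required of a gene (19102 of 58920 passed), with TMM scaling. A quasi-likelihood model with the line as factor was fitted to all 9 libraries with edgeR 4.0.16 in R 4.3.3, and p-values were adjusted by the Benjamini-Hochberg method over all genes tested. Called genes had an adjusted p of at most 0.01 at any size, and counts with the study's minimum of 1.5 on the absolute log2 fold change use edgeR's unshrunken values unless lfcShrink (type normal, added after seeing the data; the type the study used is not given in the sources used here) is named. CPM uses TMM factors. SEs of log2 fold changes were derived from the test statistic. Count ratios carry exact 95% intervals, which, like the floor of 3 counts, cover counting error only. Log2 ratios of gene pairs were compared with exact two-sided permutation tests. Positions, canonical transcripts, GC content and lengths came from GENCODE release 44 (available for 86.3% of genes tested), promoters from RefSeq.

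Alternatives were other filters, DESeq2 1.42.0 size factors and test, library totals, fits to 6 libraries, the replicate number as a block, removal of GC and length trends, other call rules, and each library left out in turn. The members and pathway lists were chosen with earlier results of these data known. Named were all 9 members and, of the lists, genes called with a log2 fold change of 1 or more in size against parental or with the largest called change of their list in either line, plus the 3 genes nearest to the member with the largest change. Genes outside this rule are marked as named after their values were seen, and some genes of the lists are not reported here. The test was tried on simulated counts: for R1 against parental, over 18706 genes, 50% of 200 genes given a log2 change of 0.3 were called, and over 18703 genes 100% of those given a change of 1. The changed genes were drawn from those with a mean of at least 200 counts, and 1 spread was used for all genes. These percentages therefore do not apply to genes with low counts, such as PIK3R3, or to genes with a wider spread.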

Additional observations from a re-analysis of the deposited data

Results flagged for a closer look

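The change against parental cells differed between R2 and R1 for 8 of the 76 pathway genes tested (10.5%, beside 7.16% of all genes tested), by the edgeR comparison of R2 with R1, and for none of the 9 core genes. These shares were not matched for expression level. The 8 genes were singled out by that test after their values had been seen. DDIT4L differed most, by 2.03 on the log2 scale (R2 minus R1, adjusted p = 0.00605). It had 11 counts over the R1 and 46 over the R2 libraries. The call was lost without R1 replicate 3 (1.46, adjusted p = 0.0382) or without R2 replicate 1 (adjusted p = 0.0221), 2 (0.0287) or 3 (0.0175).

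The sestrins, which respond to stress and leucine and restrain mTORC1, split by gene. SESN1 was lower in R2 than in R1 by a log2 difference of -0.57 (adjusted p = 9.34e-05) and SESN2 by -0.51 (adjusted p = 0.000235), while SESN3 was higher by 0.81 (adjusted p = 6.04e-07). DDIT4, which encodes the mTORC1 inhibitor REDD1, differed by -0.54 (adjusted p = 0.00116). SESN1, SESN2 and DDIT4 rose in R1 by 0.62, 0.64 and 0.52 on the log2 scale, and their R2 values of 0.05, 0.13 and -0.02 were not called. SESN3 was at 15.0 ± 1.3 CPM in parental, 12.0 ± 0.70 in R1 and 21.1 ± 0.68 in R2 cells (SD, n = 3 each). The DDIT4 call between the resistant lines was lost without R2 replicate 2 (-0.45, adjusted p = 0.0223).

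Of the remaining genes, PRKAA1, a catalytic subunit of AMPK, differed by 0.39 (adjusted p = 0.000116). GAB2, an adaptor of PI3K, differed by -0.32 (adjusted p = 0.000513). PIK3IP1, a membrane protein that inhibits PI3K, differed by -0.99 (adjusted p = 0.00119), and this call was lost without R1 replicate 2 (-0.68, adjusted p = 0.0219) or R2 replicate 1 (-0.97, adjusted p = 0.0128).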

How the results depend on the processing

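The calls of PIK3R1 and TSC1 in R1, PIK3R1 in R2 and AKT1 in R1 were kept in all 18 alternatives run. Counts of called members were 5 in R1 and 1 between R2 and R1 with GC and length trends removed. Between R2 and R1 the count was 1 (MTOR) also with library totals, with the replicate number as a block and with 0.05 as the limit of the adjusted p. Without 1 library each, the counts were 3 to 3 in R1, 2 to 4 in R2 (2 without R2 replicate 1) and 0 to 0 between R2 and R1. With the 1.5 threshold on edgeR's unshrunken values, 0 members were called, and 3, 3 and 1 of the pathway list genes in R1, R2 and R2 against R1 in place of 27, 26 and 8. On lfcShrink values, added after seeing the data, 0 members and 0 list genes passed in each comparison. The 8 list genes became 13 with the block and 15 with the limit at 0.05, and the list counts without 1 library ranged over 21 to 29, 19 to 27 and 6 to 11. Signs of values that were not called turned with GC and length trends removed for PIK3CA (0.15) and PIK3CB (0.019) in R1 and for PIK3CA (-0.010), PIK3CB (-0.030) and PIK3R1 (-0.016) between R2 and R1. They also turned for TSC2 in R1 without parental replicate 2 (0.0018, in a range from -0.15 without 1 library) and between R2 and R1 without R1 replicate 2 (0.0075, from -0.082), for DEPTOR between R2 and R1 without R1 replicate 2 (-0.05), R1 replicate 3 (-0.08) or R2 replicate 1 (-0.13, up to 0.21), and for DDIT4 in R2 without parental replicate 2 (0.11, from -0.12) or R2 replicate 2 (0.07). PRKAA2 between R2 and R1 was at 0 without R1 replicate 3 and down to -3.19 without others, and the PIK3CA to PIK3CB ratio in R1 was at -0.00093 without R1 replicate 3, in a range up to 0.13. The cause was not tested. Whether replicate numbers pair the libraries was not settled. Correlations of deviations between libraries with the same number lay between -0.106 and 0.274, and 6 of 9 libraries correlated best with their own number. The replicate block gave 3, 4 and 1 members called. Over all genes tested between R2 and R1, it gave 1026 called higher and 1018 lower, in place of 648 and 720. The block was not run together with the GC correction. With library totals, 44.8% of the genes called in R1 were higher, in place of 51.1%. At 18 to 37 counts per library, depth limits PIK3R3, and likewise SGK1, RRAGD, PRKAA2 and DDIT4L.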

Other observations

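The genes beside PIK3R1 on chromosome 5 were looked at after its values had been seen. None of the 10 nearest genes tested, 5 on each side in the RefSeq annotation, was called in R1 or R2 against parental by edgeR. CCNB1, the mitotic cyclin B1, was nearest to the threshold with a log2 fold change of 0.14 in R1 (adjusted p = 0.0108) and -0.02 in R2 (adjusted p = 0.839). SLC30A5, a zinc transporter, was at -0.18 (adjusted p = 0.0336) and 0.07 (adjusted p = 0.479), and MAST4, a large kinase gene upstream of PIK3R1, at 0.18 (adjusted p = 0.341) and -0.15 (adjusted p = 0.492). Of the other 7 neighbours, only CENPH had more than 100 counts over the 9 libraries, so CDK7, the long non-coding RNAs and the pseudogene there were not resolved. Why their counts were low was not tested.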
